A study of Arabidopsis thaliana with 4 samples.

Results

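The ubiquitin-specific proteases (UBP) of Arabidopsis thaliana were followed in seeds kept in darkness at a warm or a chilling temperature. The members were the genes that the platform annotation pairs with a single-gene probe set and names UBP with a number, optionally followed by a letter. The rule used names only and no measured value. It found 12 genes among the 13350 genes with a single-gene probe set, namely UBP15, UBP16 and UBP18 to UBP27. The RefSeq gene table lists 27 genes with such a numbered symbol, and the other 15 were not analysed here. Every member had 1 such probe set. No member carried a letter, so the oligouridylate-binding proteins UBP1A and UBP1B, which share the abbreviation but are not proteases, were not among them.

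All seeds were of the Ler-0 background (Landsberg erecta), with no other genotype, and all were held in the dark for 96 h. They were at 22 °C in 2 samples and at 4 °C in 2 samples, named here replicates A and B of each temperature. The stage is labelled dry seeds in every sample, beside the description of the incubation. Total RNA was the starting material and biotin the label, and each sample had its own Affymetrix array. The values are signals of the MAS5 algorithm on a linear scale, scaled here so that the trimmed mean of each array was 500. The number of arrays limits the precision, and the labels do not state whether replicates were separate lots of seed, so p-values reflect no more than the variation among these 4 samples, possibly technical.

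Ubiquitin is attached to proteins by a chain of activating, conjugating and ligating enzymes. UBPs are cysteine proteases that act in reverse: they cleave ubiquitin from proteins and from ubiquitin chains, which can spare a protein from the proteasome, recycle ubiquitin or end a signal. They form the largest family of deubiquitinating enzymes in plants, and members are known for roles in histone modification, organ growth, hormone responses and embryo development.

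Replicates lay farther apart at 22 °C: over the 15847 probe sets tested, their log2 difference had an SD of 1.1 there, against 0.646 at 4 °C. Of 14 seed storage and maturation markers 1 had a single-gene probe set, the oleosin gene OLEO3. It had 1305 (A) and 1838 (B) at 22 °C against 348.2 (A) and 658.2 (B) at 4 °C. Markers were not sought among probe sets that the annotation does not list or pairs with several genes. Of 9 markers of green seedling tissue 2 had a single-gene probe set. Both also had lower signals on both 4 °C arrays than on both 22 °C arrays. RCA, which encodes Rubisco activase, had 773.9 and 5235 at 22 °C and 225 and 303 at 4 °C, and the antenna protein gene LHCB4.1 had 3717 and 3835 against 289.8 and 214.9. These are differences of single transcripts, and the tissue make-up of the samples was not measured. Their part in the results below was not tested, and in whole seeds fewer cells of a type and less RNA per cell cannot be told apart.

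None of the 12 UBP genes passed the test of 4 °C against 22 °C, and the largest differences were toward higher signal in the cold, in UBP23 and UBP21. UBP23 had 3.13 times and UBP21 2.89 times its mean 22 °C signal at 4 °C. UBP18, UBP22, UBP24 and UBP25 also had both 4 °C signals above both 22 °C signals, with mean ratios of 1.32 to 1.74. UBP15, UBP16, UBP19, UBP20, UBP26 and UBP27 overlapped between the temperatures. No member had both 4 °C signals below both 22 °C signals.

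By limma's moderated test across all probe sets with Benjamini-Hochberg adjustment at 0.05, 0 of 12 members were called, against 5.05% of all probe sets tested. At an unadjusted p under 0.05, 2 members passed, UBP23 and UBP21, against 25.6% of all probe sets. Both 4 °C arrays lay above both 22 °C arrays at 6 of 12 members, against 25.7% of all probe sets, and below at 0 of 12, against 31.4%. These shares carry no test, and the members were too few to read a property of the family from them. Fold changes are given as log2 values of signal + 32, which understates changes of low signals, with a positive sign where 4 °C was higher. Their median was 0.40 over the 12 members and -0.13 over all probe sets. Leaving out 22 °C B or 4 °C B brought the members' median to 0.20 or 0.24. Relative to that median of all probe sets, 10 members lay above it and 2 below. The 2 below, UBP15 and UBP26, differed from it by only -0.004 and -0.038. UBP16 and UBP27 lay above it by only 0.012 and 0.051. The median absolute log2 fold change was 0.40 in the members and 0.68 over all probe sets. The 2 sets were not matched for signal: all 12 members also passed a filter at a mean of 200, whereas the probe sets tested reached down to 64. The part of signal level in this was not tested. The smallest absolute log2 fold change called anywhere on the arrays was 1.81, above that of every member.

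**Figure D1:**
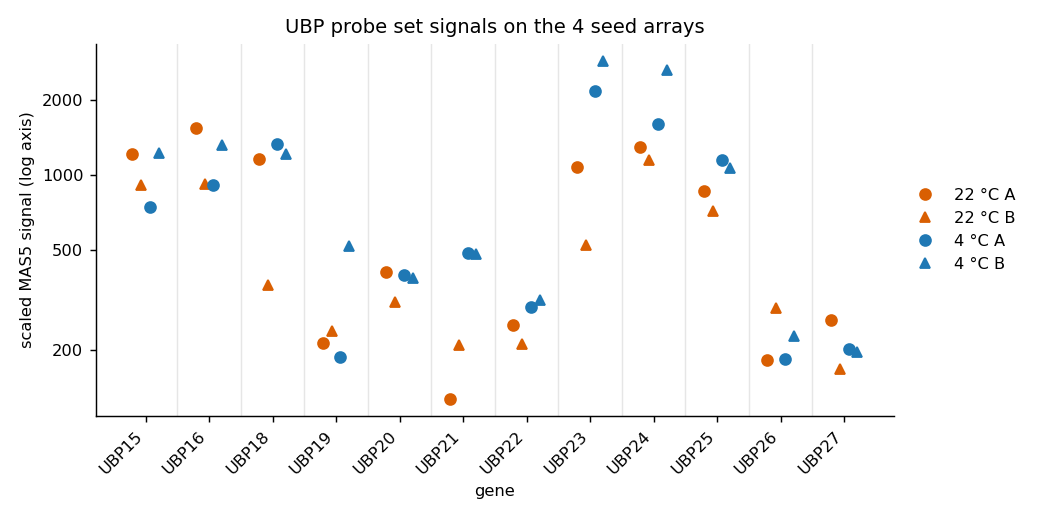
Scaled MAS5 signal (log axis) of the 12 UBP probe sets on each of the 4 arrays, with 22 °C in orange, 4 °C in blue, replicate A as circles and replicate B as triangles. In UBP18, UBP21, UBP22, UBP23, UBP24 and UBP25 both blue points lie above both orange points, and in the other 6 genes the colours overlap. Signals of different probe sets are not comparable in level.

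UBP23 (AT5G57990) had signals of 1074 (A) and 526.4 (B) at 22 °C against 2157 (A) and 2856 (B) at 4 °C. The lower 4 °C array was thus 2.01 times the higher 22 °C array, the widest gap between the temperatures after UBP21. The log2 fold change of UBP23 was 1.68 ± 0.524 (SE, n = 2 per temperature), with a 95% interval from 0.46 to 2.90 before any adjustment and a limma adjusted p = 0.101. Of all probe sets tested, 15.4% had a larger absolute log2 fold change. The 22 °C replicates differed by 2.04-fold, more than the 4 °C replicates, which differed by 1.32-fold.

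UBP21 (AT5G46740) had signals of 127.6 (A) and 209.4 (B) at 22 °C against 489.5 (A) and 485.7 (B) at 4 °C. The lower 4 °C array was 2.32 times the higher 22 °C array, and the 4 °C replicates were within 1.01-fold of each other. The log2 fold change of UBP21 was 1.40 ± 0.448 (SE, n = 2 per temperature; 95% interval 0.36 to 2.45; limma adjusted p = 0.105). At 21.8% of all probe sets the absolute value was larger. UBP20 (AT4G17895) overlapped between the temperatures. It had 408.3 (A) and 310.3 (B) at 22 °C against 400.3 (A) and 388.2 (B) at 4 °C, so that both 4 °C signals lay between the 22 °C signals. Its log2 fold change was 0.13 ± 0.435 (95% interval -0.88 to 1.15; limma adjusted p = 0.881). The difference between UBP20 and UBP21 was not tested.

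**Figure D2:**
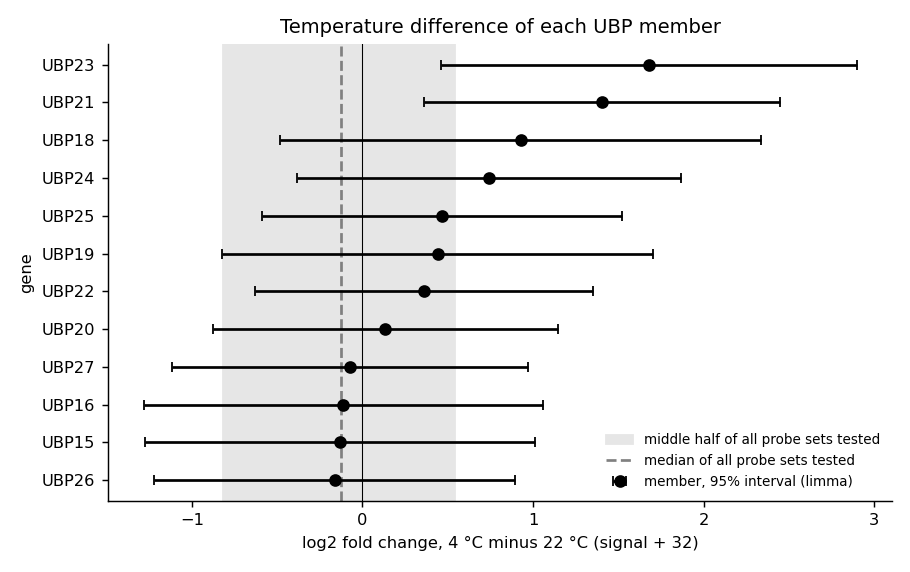
Log2 fold change of each UBP gene at 4 °C relative to 22 °C, on signal + 32, with its unadjusted 95% interval from limma (n = 2 arrays per temperature). The dashed line is the median of all probe sets tested (-0.13) and the grey band runs from their lower quartile (-0.82) to their upper quartile (0.54). The intervals of UBP23 and UBP21 lie above 0, and those of the other 10 genes include 0.

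Among the members that act on chromatin, UBP22 (AT5G10790) is the catalytic subunit of the module that removes monoubiquitin from histone H2B, a mark of transcribed genes. Its signals were 251.2 (A) and 212 (B) at 22 °C against 295.9 (A) and 315.9 (B) at 4 °C, so the temperatures did not overlap while the means differed by 1.32-fold. The log2 fold change was 0.36 ± 0.424 (SE, n = 2 per temperature; 95% interval -0.63 to 1.35; limma adjusted p = 0.643). UBP26 (AT3G49600) also removes ubiquitin from histone H2B and is known for heterochromatin silencing and for seed development. It had 183.3 (A) and 295 (B) at 22 °C against 183.7 (A) and 228.3 (B) at 4 °C. The A arrays of both temperatures were nearly equal in UBP26, and its log2 fold change was -0.16 ± 0.455 (95% interval -1.22 to 0.90; limma adjusted p = 0.863), which turned to 0.07 after quantile normalization. These intervals leave room for changes of more than 2-fold in UBP22 and UBP26, so the arrays do not show that either stayed level.

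UBP15, UBP16, UBP18 and UBP19 belong to 1 subfamily, whose proteins carry a MYND-type zinc finger. UBP15 (AT1G17110) promotes cell proliferation and organ growth, and UBP16 (AT4G24560) is known for salt tolerance. UBP15 had 1208 (A) and 913.3 (B) at 22 °C against 747.7 (A) and 1224 (B) at 4 °C, and UBP16 had 1539 and 921.3 against 912.7 and 1323. In both genes B was lower than A at 22 °C and higher than A at 4 °C, so the spread within each temperature exceeded the difference between the temperature means. Their log2 fold changes were -0.13 ± 0.491 for UBP15 and -0.11 ± 0.502 for UBP16 (SE; limma adjusted p = 0.902 and 0.918). Both values were close to the median of all probe sets, and after median centring of the arrays they turned to 0.03 and 0.04.

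UBP18 (AT4G31670) had 1155 (A) and 363.4 (B) at 22 °C against 1332 (A) and 1213 (B) at 4 °C. The 4 °C signals of UBP18 were close to that of 22 °C A, and 22 °C B stood apart at 0.315 times 22 °C A. With all 4 arrays its log2 fold change was 0.93 ± 0.605 (SE, n = 2 per temperature; 95% interval -0.48 to 2.34; limma adjusted p = 0.384). Leaving out 22 °C B gave 0.13 and leaving out 22 °C A gave 1.72, so 22 °C B decided the size of the difference. UBP19 (AT2G24640) had 212.7 (A) and 238.5 (B) at 22 °C against 188 (A) and 521.8 (B) at 4 °C. Here the array that stood apart was 4 °C B, at 2.78 times 4 °C A, whereas the 22 °C replicates were within 1.12-fold. The log2 fold change of UBP19 was 0.44 ± 0.543 (95% interval -0.83 to 1.70; limma adjusted p = 0.661), and leaving out 4 °C A or 4 °C B gave 1.11 or -0.23.

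UBP24 (AT4G30890) is known for a role in responses to abscisic acid, the hormone that maintains seed dormancy. It had 1294 (A) and 1143 (B) at 22 °C against 1601 (A) and 2638 (B) at 4 °C. Both 4 °C signals were above both 22 °C signals, with a mean ratio of 1.74, and the 4 °C replicates differed by 1.65-fold against 1.13-fold at 22 °C. The log2 fold change of UBP24 was 0.74 ± 0.484 (SE, n = 2 per temperature; 95% interval -0.38 to 1.87; limma adjusted p = 0.384). Leaving out 4 °C A gave 1.097 and leaving out 4 °C B gave 0.39.

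UBP25 (AT3G14400) had 865.2 (A) and 717.8 (B) at 22 °C against 1143 (A) and 1062 (B) at 4 °C. The temperatures did not overlap and each pair of replicates lay within 1.21-fold, but the means differed by 1.39-fold. Its log2 fold change was 0.47 ± 0.452 (SE, n = 2 per temperature; 95% interval -0.59 to 1.52; limma adjusted p = 0.564). UBP27 (AT4G39370) encodes a protease of the mitochondrial outer membrane. It had 264 (A) and 167.4 (B) at 22 °C against 202 (A) and 195.7 (B) at 4 °C. Both 4 °C signals of UBP27 lay between the 22 °C signals, and its log2 fold change was the smallest in absolute size of the 12 at -0.07 ± 0.449 (95% interval -1.12 to 0.97; limma adjusted p = 0.942). It turned to 0.21 after quantile normalization and to 0.08 after median centring.

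The members also differed in how far replicates lay apart. At 22 °C, 9 of 12 members had a lower signal on B than on A, against 52% of all probe sets tested, and the exceptions were UBP19, UBP21 and UBP26. At 4 °C, 5 of 12 were lower on B, against 46.7% of all probe sets. Replicates agreed within 1.5-fold at 6 of 12 members at 22 °C and at 9 of 12 at 4 °C, against 40% and 60.6% of all probe sets. In the members, replicates differed by a median absolute log2 value of 0.48 at 22 °C and 0.20 at 4 °C, against 0.67 and 0.39 over all probe sets. These comparisons too were not matched for signal level. The widest replicate gaps were those of UBP18 and UBP23 at 22 °C and of UBP19 at 4 °C. At 4 °C the replicates of UBP20, UBP21 and UBP27 lay within 1.03-fold.

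**Figure D3:**
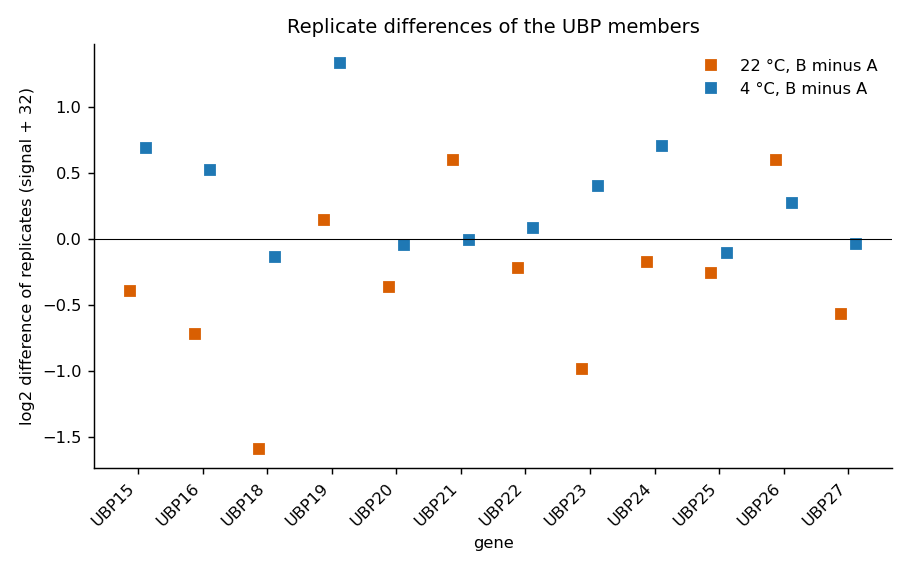
Log2 difference of replicate B minus replicate A, on signal + 32, for each UBP gene at 22 °C (orange) and at 4 °C (blue), 1 difference per gene and temperature. Most orange squares lie below 0, with UBP18 lowest at -1.59 and UBP23 next at -0.99, and the highest blue square is UBP19 at 1.33.

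Leaving out each array in turn showed which member values rest on 1 array. The log2 fold changes of UBP21, UBP22, UBP23, UBP24, UBP25 and UBP18 kept a positive sign in all 4 omissions, as they must where the temperatures do not overlap. That of UBP23 was lowest, 1.18, with 22 °C B left out and highest, 2.17, with 22 °C A left out, and that of UBP21 was lowest, 1.11, with 22 °C A left out and highest, 1.70, with 22 °C B left out. UBP22 and UBP25 stayed within narrow ranges, from 0.25 to 0.47 and from 0.34 to 0.60. UBP15, UBP16, UBP19, UBP20, UBP26 and UBP27 changed sign in at least 1 omission. Each omission left a single array at 1 temperature, so no member calls are read from these fits. With an array of 22 °C left out, the spread came from the more similar 4 °C pair alone, and the lone array was assumed to vary like that pair. With an array of 4 °C left out, the spread came from the 22 °C pair alone.

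**Figure D4:**
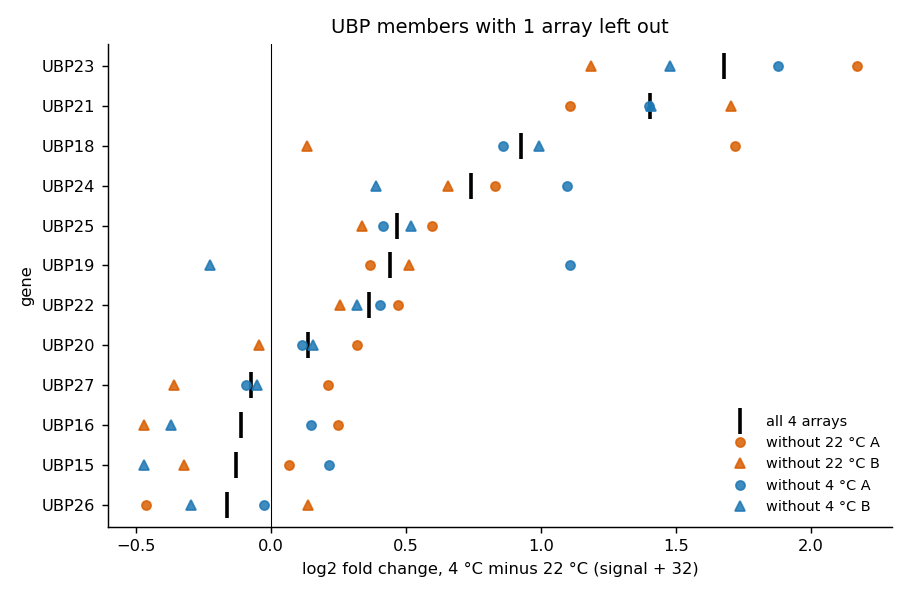
Log2 fold change of each UBP gene (4 °C minus 22 °C, on signal + 32) with all 4 arrays (black bar) and with 1 array left out (orange for a 22 °C array, blue for a 4 °C array, circles for A and triangles for B). The 6 genes whose temperatures do not overlap stay right of 0, UBP18 spans the widest range from 0.13 to 1.72, and UBP15, UBP16, UBP19, UBP20, UBP26 and UBP27 fall on both sides of 0.

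Other genes of the ubiquitin pathway were taken from lists by symbol or locus. Ubiquitin genes, ubiquitin-activating enzymes and ubiquitin C-terminal hydrolases had 0 single-gene probe sets and were not analysed here. A list of histone H2B ubiquitin ligases and UBP22 partners, given by locus, had 2 genes with a single-gene probe set. Both were listed as UBP22 partners, AT5G58575 as SGF11 and AT3G27100 as ENY2. No ligase of the list had such a probe set. The gene tables used here give no name for either locus. AT5G58575 had 2206 (A) and 720.9 (B) at 22 °C against 289.7 (A) and 245.5 (B) at 4 °C. Both 4 °C signals were below both 22 °C signals, the opposite side from UBP22. Its log2 fold change of -2.12 ± 0.598 (SE, n = 2 per temperature) did not pass (limma adjusted p = 0.0794), but passed with a filter at a mean signal of 200 (adjusted p = 0.0438). Leaving out 22 °C A gave -1.33 and leaving out 22 °C B gave -2.91. Without 4 °C A or 4 °C B it was -2.23 or -2.01. Over the other pseudocounts, filters, normalizations and variance models the limma adjusted p ranged from 0.0438 to 0.128. AT3G27100 had 217.8 (A) and 217.3 (B) at 22 °C against 479.3 (A) and 299.6 (B) at 4 °C, on the same side as UBP22, with a log2 fold change of 0.72 ± 0.45 (adjusted p = 0.361). Leaving out 4 °C A gave 0.41 and leaving out 4 °C B gave 1.03. Of the list of other deubiquitinases 1 gene had a single-gene probe set, AT1G28120, also unnamed in these tables. It had 380.5 (A) and 766.5 (B) at 22 °C against 889.8 (A) and 1142 (B) at 4 °C, with a log2 fold change of 0.86 ± 0.514 (adjusted p = 0.343), and leaving out 22 °C A or 22 °C B gave 0.38 or 1.33.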

How the data were processed

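The deposited table holds 1 linear probe set intensity per array, made by the authors with MAS5 per the submitters' processing notes. For its version, background handling, detection calls and genome build: not given in the sources used here. The 2% trimmed mean of every deposited column was 100, found from the values, and arrays were multiplied to bring it to 500. The 64 control probe sets were left out and 15847 of 22746 kept at a mean scaled signal of at least 64. All 12 members passed.

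limma 3.58.1 (R 4.3.3; lmFit, eBayes with trend) was fitted to log2(signal + 32) of all kept probe sets on the 4 arrays with no covariate, 4 °C minus 22 °C. P-values were Benjamini-Hochberg adjusted over all of them at 0.05. Intervals are 95% and unadjusted. With 2 arrays against 2, no permutation test was run. The fit was also run on simulated data with independent noise of the same spread at both temperatures, unlike the replicates here. That run cannot show how the test behaves on these arrays.

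Names came from the platform annotation, which paired 13513 probe sets with 1 gene, 503 with several and 8730 with none listed; 13436 single-gene ones matched RefSeq (TAIR10.1). Members, gene lists and tests were chosen with earlier results of these data known. The rule for named genes takes every member and, from each other list, up to 4 genes past the threshold or else the one with the largest absolute value. 1 of the lists is not reported here. AT3G27100 and the marker genes described were picked after their values were seen. No sequences are shown.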

Additional observations from a re-analysis of the deposited data

How the results depend on the processing

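Against 0 members called higher and 0 lower, no other pseudocount, filter, normalization or variance model tried called any of the 12. With the replicate letter as a block 2 were called higher, UBP23 (limma adjusted p = 0.0377) and UBP21 (0.0484). Calls rose over all 15847 probe sets too, from 430 higher and 371 lower to 1256 and 1623. The 2 calls are therefore not read as a result about the members. No label ties arrays of the same letter together, and the B minus A differences of the 2 temperatures had r = 0.209 across probe sets. No member calls are read from the fits with 1 array left out, since these hold a single array at 1 temperature. Outside the block and the omissions, the adjusted p ranged from 0.0813 to 0.137 for UBP23 and from 0.0735 to 0.178 for UBP21. Of 156 member values under alternatives, 13 changed sign, all in members with adjusted p of at least 0.661 with all arrays. Many of the 156 could not change sign. The other filters, the variance models and the block leave each member's log2 fold change as it was. Omissions cannot turn it in members whose temperatures do not overlap. Median centring turned UBP15 to 0.026, UBP16 to 0.043 and UBP27 to 0.082, and quantile normalization turned UBP26 to 0.071 and UBP27 to 0.21. These scalings moved the median of all probe sets by 0.155 and 0.157.

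With 1 array left out, the log2 fold change ranged from -0.47 to 0.21 for UBP15, -0.47 to 0.25 for UBP16, -0.23 to 1.11 for UBP19, -0.047 to 0.32 for UBP20, -0.46 to 0.14 for UBP26 and -0.36 to 0.21 for UBP27. Members with both 4 °C arrays above both 22 °C arrays numbered 6 to 8, and those with both below 0 to 3, since fewer arrays need to lie apart.

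The counts over all probe sets, 430 higher and 371 lower, were 700 and 566 with a filter at 200, 1 and 1 with none, 139 and 87 with 100 as the pseudocount, and 1256 and 1623 with the block. Median centring gave 669 higher. Omitting 1 array gave 0 to 1547 higher and 1 to 2595 lower. In the list of H2B ligases and UBP22 partners 1 was called lower with a filter at 200 and 1 with the block. Each of the 12 members had 1 probe set and none of their symbols a letter, so the alternatives on those points could not differ. Signals near background and 2 arrays per temperature limit what can be detected.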

Other observations

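Control probe sets for ubiquitin took no part in the comparison, and their values, picked out after the results were seen, show the transcripts of the protein that UBPs release. Of 5 such controls 3 had both 4 °C signals below both 22 °C signals and 0 above, against 31.4% and 25.7% of all probe sets tested. The 5 are probe sets for 1 family of transcripts, so they do not count as separate genes beside these shares. The middle probe set of the older series had 4848 (A) and 5211 (B) at 22 °C against 3354 (A) and 2850 (B) at 4 °C, a mean ratio of 0.617. Its 3-prime probe set had 11683 and 11378 against 8613 and 8459, a ratio of 0.74. Its 5-prime probe set overlapped, with 8966 and 8209 against 8457 and 5998, a ratio of 0.842. In the newer series the 3-prime probe set overlapped between temperatures. It had 14137 (A) and 17185 (B) at 22 °C against 13702 (A) and 21796 (B) at 4 °C, a ratio of 1.13. The 5-prime probe set of that series did not overlap, with 11991 and 12538 against 11492 and 11717, but its ratio was only 0.946. Probe sets for the same family of transcripts thus differed in whether the temperatures overlapped. No test was run on these controls, and ubiquitin genes share sequence, so the transcripts behind each value cannot be told apart.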
